A study of Homo sapiens with 12 samples.

Results

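SUP-T13 is a human T-ALL cell line, and its STAT5B ChIP-Seq peaks are described here as a list of their own, with the lists of the other cell lines used as reference. The members were all peaks on chromosomes 1 to 22 that the authors called in the SUP-T13 STAT5B library against the input library of the same line. There were 4358 of them, from 4368 peaks in the SUP-T13 list and 24844 peaks in the 6 lists of the series. The labels give SUP-T13 as a precursor T-cell line of lymphoid origin with high STAT5 activation. KOPT-K1, DND-41, and HSB-2 also carry the label high, whereas LOUCY and JURKAT carry the label low. Genotype is labelled WT for all 6 lines, but the study's text gives KOPT-K1 a mutated *STAT5B* and DND-41 mutations in other genes of the pathway, so the label cannot be read as absence of mutations. In the other T-ALL lines that it tested, the study reports no gain-of-function mutation in the SH2 domain of *STAT5B* or the JH2 domain of *JAK1* or *JAK3*. Genotype was not checked in these data. For each line, formaldehyde-fixed and sonicated chromatin was precipitated with an anti-STAT5B antibody (R&D Systems AF1584), or left without antibody as input, and libraries were size-selected for fragments of 200 to 400 bp. The study's methods list a further STAT5B antibody (Invitrogen) for ChIP-Seq, which no label of these libraries names. There was 1 STAT5B library and 1 input library per line, so no value has a replicate. The lists hold no read counts or expression values, so sequencing depth is not known here and the cell type could not be checked against marker genes. Each peak has an interval, a summit (the position of highest signal), a fold enrichment over input (a linear ratio), and a −log10 q that ranks the peaks within the list.

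STAT5A and STAT5B are transcription factors that are phosphorylated by JAK kinases downstream of cytokine receptors such as the IL-7 receptor, then dimerize, enter the nucleus, and bind DNA. Their dimers recognize a palindrome called the GAS element, in which TTC and GAA are separated by a short spacer, and other STAT proteins recognize closely related elements. In developing T cells and in T-ALL, this pathway promotes survival and proliferation.

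The GAS palindrome TTCNNNGAA lay within 50 bp of the summit in 162 of the 4358 peaks. Because the palindrome reads the same on both strands, 1 strand was searched. The 13 such summits with a −log10 q of 7 or more are given first, because the motif was most frequent among the best-ranked peaks. Each line gives the nearest gene, the position on the plus strand of GRCh38, and the reference sequence 5′ to 3′. Capitals mark the palindrome, with 20 bases on either side in lower case.
CAMKMT chr2:44674596-44674644: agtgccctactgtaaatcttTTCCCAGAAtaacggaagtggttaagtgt
PTPN4 chr2:119929638-119929686: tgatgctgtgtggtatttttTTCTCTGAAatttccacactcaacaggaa
ZNF33B chr10:40615796-40615844: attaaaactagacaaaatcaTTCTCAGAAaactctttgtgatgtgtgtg
GPD2 chr2:156896531-156896579: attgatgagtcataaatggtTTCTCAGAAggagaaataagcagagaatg
SCN9A chr2:166376320-166376368: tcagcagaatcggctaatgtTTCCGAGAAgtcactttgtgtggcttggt
NMI chr2:151289622-151289670: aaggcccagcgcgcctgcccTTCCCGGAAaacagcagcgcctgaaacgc
MCOLN3 chr1:85050892-85050940: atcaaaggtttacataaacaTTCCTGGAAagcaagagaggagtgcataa
HNRNPA3 chr2:176826485-176826533: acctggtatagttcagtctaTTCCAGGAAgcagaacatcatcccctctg
GBP1 chr1:89070130-89070178: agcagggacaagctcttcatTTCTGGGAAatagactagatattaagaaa
KCNA2 chr1:110647448-110647496: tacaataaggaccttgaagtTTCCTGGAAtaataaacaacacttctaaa
ACKR1 chr1:159198174-159198222: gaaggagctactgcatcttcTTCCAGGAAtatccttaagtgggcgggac
STK17B chr2:196183991-196184039: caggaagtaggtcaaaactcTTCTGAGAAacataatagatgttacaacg
ABCA4 chr1:94081541-94081589: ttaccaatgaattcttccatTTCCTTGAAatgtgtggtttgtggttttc
A match describes the letters of the reference and does not show that a protein was bound to them.

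Of these 13 summits, the one at *NMI*, which encodes a protein that interacts with STAT factors, lay 42 bp downstream of a start site, in exon 1 (fold enrichment 3.67, −log10 q 15.4). The summit at *SCN9A*, which encodes a voltage-gated sodium channel, lay 305 bp upstream of a start site (fold enrichment 3.75). The summit in intron 3 of *CAMKMT*, which encodes a methyltransferase of calmodulin, lay 1958 bp upstream of an annotated start inside the gene (fold enrichment 4.74, −log10 q 70.0). These promoter summits were each the single summit of a long interval, of 10.4 Mb, 14.8 Mb, and 46.8 Mb, respectively. By contrast, the summit 4.79 kb upstream of *GBP1*, a guanylate-binding protein gene induced by interferons, came from an interval of 2361 bp (fold enrichment 2.78, −log10 q 10.0). An interval of 1933 bp had its summit 7.50 kb upstream of *STK17B*, which encodes a kinase expressed in lymphocytes, with a fold enrichment of 2.53. An interval of 2326 bp had its summit 2389 bp upstream of *MCOLN3*, inside the neighboring gene *DNAI3*, with a fold enrichment of 3.40. The other 7 summits lay in intron 13 of *PTPN4*, a protein tyrosine phosphatase gene, in intron 7 of *ABCA4*, inside *CADM3* near *ACKR1*, or outside protein-coding genes. The last of these, with *ZNF33B*, *GPD2*, *HNRNPA3*, and *KCNA2* as nearest genes, lay 1979 kb, 317 kb, 386 kb, and 16.0 kb from a start site, and the nearest gene is then only a label of position. The summit nearest to *ZNF33B* lies in or beside centromeric repeats and is uncertain. The genes at these 13 summits that the naming rule did not select were picked after their values were seen.

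The intervals were of very unequal length. The median was 3567 bp, with quartiles of 1929 and 11116 bp, and the shortest was 1185 bp, longer than the fragments selected for the libraries. The list also held 40 intervals over 1 Mb, which made up 72.0% of the 333 Mb covered. The median fold enrichment was 2.01 (quartiles 1.90 and 2.16), and the median −log10 q was 2.40 (quartiles 2.03 and 3.12), so most peaks stood little above the input. Many shared their values exactly: the 4358 peaks had 931 distinct pairs of fold enrichment and −log10 q, and 434 peaks (9.96%) had the same pair, 1.99 and 2.08. The summit lay less than 200 bp from an edge of its interval in 1269 peaks (29.1%). In the other 5 lists this share ranged from 25.1% (DND-41) to 37.0% (KOPT-K1), and the shortest interval from 1498 bp (DND-41) to 3117 bp (KOPT-K1).

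Chromosome 1 held 2813 of the peaks and chromosome 2 held 1511, together 99.2% of the list, and the other 34 lay on 7 further autosomes, 17 of them on chromosome 5. On 13 autosomes no peak was listed. On chromosome 1 the intervals ran from 33.4 Mb to 229 Mb and covered 48.9% of the chromosome. On chromosome 2 they ran from 13.7 Mb to 223 Mb and covered 82.2%, of which intervals over 1 Mb made up 169 Mb. The number of summits differed widely between windows. Between 40 and 60 Mb of chromosome 1 there were 964 summits with a median interval of 4056 bp, and in the same window of chromosome 2 there was 1 summit, that of the 46.8-Mb interval. A gene inside a long interval can therefore be covered without having a summit of its own.

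**Figure D1:**
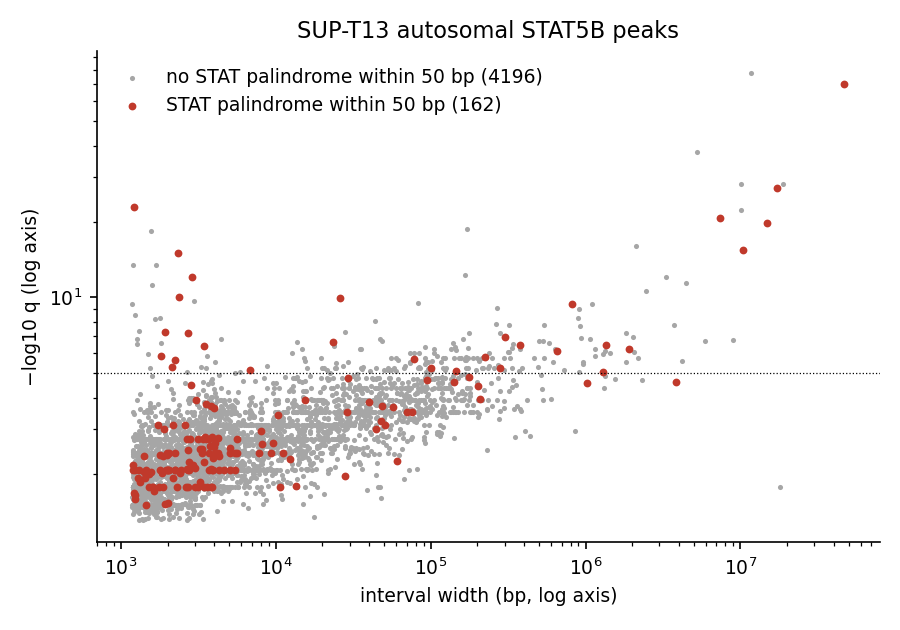
Interval width (x axis, bp, log scale) and −log10 q (y axis, log scale) of the 4358 autosomal SUP-T13 STAT5B peaks, 1 point per peak. Red points are the 162 peaks with the GAS palindrome within 50 bp of the summit, and the dotted line marks a −log10 q of 5, above which lie 210 peaks with a median width of 123134 bp.

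The plot of interval width against rank shows that longer intervals had higher −log10 q. The median width was 1875 bp at a −log10 q of 1.3 to 2 and 15569 bp at 3 to 4. It also shows a smaller set of short intervals with high −log10 q, 31 of them up to 5 kb at a −log10 q of 5 or more. Rank and width thus moved together in this list, and the motif was therefore also counted after dividing the peaks by both.

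The summits were assigned to 4 classes in a fixed order, namely promoter (within 2 kb of any annotated start site of a GENCODE protein-coding gene), exon, intron, and distal. Promoters held 574 summits, or 13.2% (95% exact binomial interval 12.2% to 14.2%), and the intervals given here and below cover counting error only. Exons held 123 (2.82%), introns 1692 (38.8%), and distal sites 1969 (45.2%). Of the sequenced bases of chromosomes 1 and 2, 7.92% fell in the promoter class, 2.41% in exons, 37.3% in introns, and 52.3% in the distal class. Promoters thus held 1.66 times their share of bases. Much of this ratio was also present in the neighborhood of the summits, since 11.3% (10.6% to 11.9%) of the positions 20 kb to either side fell in promoters. The interval of the summits lay just above it. As a reference, promoters held 11.2% of the summits of LOUCY, 9.08% of those of DND-41, 8.60% for JURKAT, 7.91% for HSB-2, and 4.49% for KOPT-K1. The lists differ in the regions they cover, and their shares were not tested against that of SUP-T13.

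Within the promoter window the summits were concentrated close to the start site. On chromosomes 1 and 2, 222 summits (5.13%, 4.50% to 5.83%) lay less than 250 bp from a start site, where 1.38% of the bases lie, a ratio of 3.73. The ratio was 1.86 at 250 to 500 bp, 1.27 at 500 to 1000 bp, and 1.03 at 1000 to 2000 bp. Farther away it did not fall steadily, at 1.21 at 2 to 5 kb, 1.22 at 5 to 10 kb, and 1.07 at 10 to 50 kb. It was 0.742 for summits at least 50 kb from any start site. Within 1 kb, 243 summits lay downstream of the start and 178 upstream, so the downstream side held 57.7% (52.8% to 62.5%). Among intron summits on chromosomes 1 and 2, 21.2% (19.3% to 23.3%) lay in intron 1 of a canonical transcript, and 21.0% of the intron bases lie there, so first introns held no more summits than their length gives.

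Promoter summits named 502 genes, or 2.63% of the 19111 protein-coding genes on autosomes, and 501 of them lay on chromosomes 1 and 2, where they made up 15.1% of 3308 genes. With summits in the gene body added, 786 genes, or 23.8%, had a summit on these chromosomes. Genes whose canonical start lay inside an interval over 1 Mb had a promoter summit in 14 of 900 cases (1.56%), against 487 of 2408 (20.2%) for the rest, as follows from 1 summit per interval. A further 821 genes start before the first or after the last listed interval of their chromosome. Without these and without starts inside intervals over 1 Mb, 487 of 1587 genes (30.7%, 28.4% to 33.0%) had a promoter summit. Most of the 502 genes (406) had a single promoter summit, and 58 of the 574 promoter summits lay within 2 kb of start sites of more than 1 gene.

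The 10 promoter summits with the highest −log10 q included those at *CAMKMT*, *SCN9A*, and *NMI*. Also among them were *TTC27* (fold enrichment 3.02, 170 bp upstream of a start site) and *ATXN7L2* (2.98, 243 bp downstream), both in intervals under 3 kb. A further 4 were at *NOTCH2NLC* (fold enrichment 3.37), *NBPF26* (3.20), *NOTCH2NLA* (3.11), and *NBPF11* (3.04), members of gene families with near-identical copies on chromosome 1. Reads from such copies can be placed at more than 1 of them, so these 4 summits are uncertain. Without peaks whose nearest gene was a copy of these families, the promoter share among peaks with a −log10 q of 5 or more was 19.5% (14.3% to 25.6%), against 21.0% (15.7% to 27.1%) with them.

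The palindrome was found at 22 of the 574 promoter summits, a share of 3.83% (2.42% to 5.75%) against 2.96% (2.06% to 4.11%) in windows 1000 bp to either side, and these intervals overlap. After *CAMKMT*, *SCN9A*, and *NMI*, the highest −log10 q in this group was at *PGAP1*, which encodes an enzyme that remodels GPI anchors. It had 2 such summits, 1 of them 36 bp upstream of a start site (fold enrichment 2.20) and 1 in intron 14, 1634 bp upstream of an annotated start inside the gene (2.50). Lower in rank were *AOX1* (fold enrichment 2.46), *ATRAID* (2.28), and *UFC1* (2.06). At *ATRAID* the summit lay 9 bp downstream of the start in exon 1, and KOPT-K1 had a summit within 500 bp.

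The list of T cell receptor and coreceptor genes is wider than its name and also holds *CD1A* to *CD1E*, *BCL10*, *XCL1*, *XCL2*, and *FASLG*. Of its 36 genes, 25 lie on chromosomes 1 and 2, and 7 of these (28%) had a promoter summit. The interval of this share (12.1% to 49.4%) includes the 15.1% of all genes of these chromosomes. The 7 genes were *CD2* and *CD28*, which encode an adhesion and a costimulatory receptor, *CD247*, *CD1D*, *SLAMF1*, *LY9*, and *PTPN22*, which encodes a phosphatase that dampens T cell receptor signaling. Of these 7, the 5 with the highest −log10 q were *CD1D* (fold enrichment 2.20, intron 1), *SLAMF1* (2.11, intron 1), *PTPN22* (1.96, intron 1), *LY9* (1.98, intron 4), and *CD247* (1.97, intron 4). At *LY9* and *CD247* the annotated start near the summit lies inside the gene. The −log10 q was 3.41 at *CD1D* and 2.17 at *CD247*, the latter below the list median of 2.40. *CD48*, *CD58*, and *SLAMF6* had a summit in the gene body only, and 15 had none, among them *LCK*, *ZAP70*, *CD8A*, and *PTPRC*. Of the 25 genes, 4 start inside an interval over 1 Mb and 1 before the first or after the last listed interval of its chromosome. They include *ZAP70* and *CD8A*, inside such intervals, and *LCK*, before the first interval of chromosome 1. A missing summit at such a gene says nothing of STAT5B there. Of the other 20, 7 (35%, 15.4% to 59.2%) had a promoter summit, and this interval includes the 30.7% of all genes in the same stretches. The GAS summit nearest to *ICOS*, another costimulatory receptor gene, lay 69.7 kb downstream of its start and outside genes, with a fold enrichment of 2.64. It was picked after its values were seen.

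Of the JAK-STAT and cytokine receptor genes, 19 lie on chromosomes 1 and 2, and 5 of them (26.3%, 9.15% to 51.2%) had a promoter summit, too few to set apart from the 15.1% of all genes. Without starts inside intervals over 1 Mb or beyond the listed stretches, the share was 5 of 12 (41.7%, 15.2% to 72.3%). This interval includes the 30.7% of all genes on the same basis. The 5 genes included *JAK1*, which encodes a kinase that phosphorylates STAT proteins (fold enrichment 2.13, 244 bp downstream of a start site), and the receptor genes *IL12RB2* (2.39) and *IL23R* (2.51). The best-ranked summit in the body of *STAT4* was in intron 14 (fold enrichment 1.59). None of these 4 summits had the GAS palindrome within 50 bp. Known STAT5 target genes of this list, such as *CISH*, *PIM1*, and *SOCS2*, lie on chromosomes with few or no listed peaks and had no promoter summit.

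Of the T-ALL transcription factor genes, 12 lie on chromosomes 1 and 2, and 1 of these (8.33%) had a promoter summit. *NOTCH2* and *IKZF2* had summits in the body only, and *TAL1* had none. However, *TAL1* was covered by an interval of 118160 bp whose summit was nearest to *PDZK1IP1* (fold enrichment 2.59, −log10 q 4.80). Its missing summit therefore says nothing of STAT5B there. Of 10 apoptosis genes there, *CASP10* and *CASP8*, neighboring genes for initiator caspases, had promoter summits, and *CFLAR*, which encodes their inhibitor, had one in exon 10. The *CASP10* summit lay 5 bp downstream of an annotated start in an interval of 1314 bp (fold enrichment 2.69, −log10 q 7.35). That of *CASP8* had a fold enrichment of 1.85 and that of *CFLAR* 2.45. Cell cycle genes had promoter summits in 5 of 23 cases (21.7%, 7.46% to 43.7%), at the kinetochore gene *NUF2* (fold enrichment 2.42), *PLK3* (2.04), *KIF2C* (1.97), *CENPA* (1.83), and *ORC2* (1.70). For each of these 3 lists the interval of the share includes the 15.1% of all genes of chromosomes 1 and 2.

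Promoter summits were listed for 0 of 9 B cell genes (0% to 33.6%) and 0 of 14 myeloid and erythroid genes (0% to 23.2%) on chromosomes 1 and 2. These intervals include 15.1%, and 4 of the 14 start inside an interval over 1 Mb, so the counts do not set these genes apart. Olfactory receptor genes had 1 in 67 (1.49%), at *OR10K2* (fold enrichment 2.05), but 50 of the 67 start before the first or after the last listed interval of their chromosome. Among the other 17, the share was 5.88% (0.149% to 28.7%). This interval ends below the 30.7% of all genes in the same stretches but overlaps the interval of that share (28.4% to 33.0%). Of 39 epidermal differentiation genes and 9 HOXD genes none had one, but 32 and all 9 of these, respectively, start inside an interval over 1 Mb and so could hardly have had a summit. The remaining lists were also small, and their intervals all include 15.1%. Promoter summits were listed for 2 of 9 ribosomal protein genes (*RPL5*, fold enrichment 2.35, and *RPS27*, 1.72) and 1 of 16 mitochondrial ribosomal protein genes (*MRPS21*, 2.31). Proteasome genes had 2 of 7 (*PSMA5*, 2.34, and *PSMD4*, 2.22), splicing factor genes 2 of 18 (*HNRNPA3*, 1.95, and *SF3B6*, 1.88), and histone genes 1 of 16 (*H2AC18*, 2.39). Zinc finger genes had 4 of 29, at *ZNF513* (2.64), *ZNF142* (2.25), *ZNF512* (2.28), and *ZNF691* (2.04).

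Outside promoters, the best-ranked summits lay mostly in long intervals. The 5 intron summits with the highest −log10 q were in intron 3 of *CDKL4* (interval 10.1 Mb, fold enrichment 4.07), intron 1 of *SH3RF3* (18.8 Mb, 4.67), and intron 13 of *PTPN4* (17.2 Mb, 4.13), within *CCDC200* on chromosome 17 (1558 bp, 4.19), and upstream of *MCOLN3*. Of the 5 distal summits, the one with the highest −log10 q in the list, 77.6, lay on chromosome 16 in an interval of 11.8 Mb, 203 kb from the start of *SHCBP1*. The highest fold enrichment in the list, 6.55, was at a distal summit 1915 kb from *AQP7B* on chromosome 2. The other 3 were nearest to *ZNF33B* on chromosome 10, *THSD7B* (fold enrichment 4.63), and *GPD2* (3.82). The summits on chromosomes 10 and 16 and the one nearest to *AQP7B* lie in or beside centromeric repeats, where reads can be hard to place. They are treated as uncertain, although read placement was not checked here.

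The genes with the most summits in the gene body were long genes crossed by many short intervals. *DNM3*, which encodes a dynamin, held 76 summits over 601 kb, or 12.7 per 100 kb, of which 3 had the palindrome. *KCNS3*, a potassium channel gene, held 65 over 484 kb and 0 had it. *HIVEP3* held 47 over 530 kb, *FAF1* 38 over 523 kb, and *RNF220* 34 over 247 kb, with 3, 3, and 0 palindromes. The densities of these 3 genes were 8.88, 7.26, and 13.8 per 100 kb. Since the 5 genes were selected by their counts, no relation to gene length or motif can be read from them.

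Over the whole list, the intervals of the palindrome share at and near the summits overlapped. The motif was found in 3.72% of summit windows (3.18% to 4.32%), in 3.18% of windows 1000 bp to either side (2.82% to 3.57%), and in 3.64% of all 4663510 windows of 101 bp tiled over chromosomes 1 and 2. The share was alike in promoters (3.83%), exons (4.07%), introns (3.61%), and distal sites (3.76%). A narrower form that is part of the first motif (TTCTNAGAA, TTCTNGGAA, TTCCNAGAA, or TTCCNGGAA) was found at 84 summits, or 1.93% (1.54% to 2.38%), above the 1.03% (0.832% to 1.27%) of the flanks, but near the 1.57% of all tiled windows.

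The share depended on rank. Among the 4148 summits with a −log10 q under 5 it was 3.18% (2.67% to 3.76%), against 3.11% in their flanks. Among the 210 with a value of 5 or more it was 14.3% (9.85% to 19.8%), against 4.56% (2.77% to 7.02%) in their flanks, so the intervals did not overlap. In steps, it was 10.6% (17 of 161 summits) at 5 to 7, 16% (4 of 25) at 7 to 10, and 37.5% (9 of 24, 18.8% to 59.4%) at 10 or more, where the flanks held 4.35% (0.531% to 14.8%). At 5 to 7 and at 7 to 10 the intervals of summits and flanks overlapped, and below 5 no step exceeded 3.64%. The narrower form made up 23 of the 30 palindromes of these 210 peaks (76.7%, 57.7% to 90.1%) and 62 of the 135 among the rest (45.9%, 37.3% to 54.7%).

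The difference by rank was seen at short and at long intervals. From a −log10 q of 5 upward, intervals up to 5 kb had the palindrome in 10 of 31 cases (32.3%, 16.7% to 51.4%) and longer ones in 20 of 179 (11.2%, 6.96% to 16.7%). Under 5, the shares were 3.54% and 2.53%, respectively, so the difference remained within each width group. In the same 210 peaks the share was 13.6% at 44 promoter summits and 14.5% at the other 166. Of the 30 summits, 13 were on chromosome 1, 16 on chromosome 2, and 1 on chromosome 10. By location, 16 were distal, 7 in introns, 6 at promoters, and 1 in an exon, that of *KLF7*. By distance from the summit, the share was highest in the central 100 bp (33 of 207 summits, 15.9%, 11.2% to 21.7%) and next in the adjoining downstream bin (8.21%), and the other bins ranged from 0.966% to 7.25%. At the same cutoff, the share was 34.4% for DND-41, 31.3% for HSB-2, 29.7% for KOPT-K1, 7.69% (3.58% to 14.1%) for JURKAT, and 3.91% for LOUCY. The intervals were 9.85% to 19.8% for SUP-T13, 21.4% to 39.1% for KOPT-K1, 30.9% to 38.0% for DND-41, 25.2% to 38.0% for HSB-2, and 1.28% to 8.88% for LOUCY. They cover counting error among the peaks of 1 library per line, at a cutoff that depends on an unknown depth. The lines were therefore not tested against each other. The order of the shares was different at a −log10 q of 10 or more. There, the 37.5% of SUP-T13 (18.8% to 59.4%) overlapped all the others, with 52.4% (41.2% to 63.4%) for HSB-2, 45.4% (39.8% to 51.2%) for DND-41, 33.3% (21.4% to 47.1%) for KOPT-K1, 8% (0.984% to 26.0%) for LOUCY, and 6.67% (0.169% to 31.9%) for JURKAT.

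Promoter shares also rose with rank, but at a lower −log10 q. They were 9.42% (7.72% to 11.3%) at 1.3 to 2, 11.2% at 2 to 3, 18.4% (15.7% to 21.3%) at 3 to 4, and 23.0% at 4 to 5, steps in which the palindrome share was at most 3.64%. At 5 to 7, promoters held 20.5%, at 7 to 10 they held 28% (12.1% to 49.4%), and at 10 or more 16.7% (4.74% to 37.4%), with too few peaks in the last steps to tell whether the share changed further.

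Motifs of other factors were searched on both strands in the same windows. They were chosen after seeing the data, from a longer set that had been looked at, so a difference at 1 of them carries less weight. The RUNX motif TGTGGT, bound by a factor family active in T cells, was found at 32 of the 210 summits with a −log10 q of at least 5 (15.2%, 10.7% to 20.8%), above their flanks (6.95%, 4.71% to 9.84%), and in 8.31% of all summits against 7.34% of all flanks, with overlapping intervals, and 6.84% of tiled windows. In the same 210 summits, the intervals of summits and flanks overlapped for each other motif named below. These included the GC box (7.62% against 2.64%), the TATA box (7.62% against 12.2%), and the CCAAT box (9.52% against 14.9%). The GC box GGGCGG was above the flanks over the whole list, at 3.01% (2.52% to 3.56%) against 1.92% (1.64% to 2.23%), and the TATA box TATAAA was below them, at 8.65% (7.83% to 9.52%) against 10.9% (10.3% to 11.6%). For the GATA motif AGATAA (6.59% against 7.51%), the TAL1 E-box CAGATG (5.99% against 6.42%), the AP-1 motif TGANTCA (3.24% against 3.09%), the CCAAT box (13.5% against 14.3%), and the ETS motif ACCGGAA (0.161% against 0.126%), the intervals of summits and flanks overlapped. The shares in all tiled windows were 7.54%, 6.55%, 3.10%, 14.8%, and 0.132% for these 5, and 1.47% and 11.4% for the GC box and TATA box. None of these motifs contains another, although they may share bases in a window.

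Base composition moved with location. The median GC content was 42.6% in summit windows, 40.6% in the flanks, and 39.6% in all tiled windows of chromosomes 1 and 2. In the 223 windows within 250 bp of a start site it was 64.4%, close to the 66.3% of windows at all 3297 canonical starts of these chromosomes. Of these 223 windows, 23.8% (18.3% to 29.9%) held the GC box, against 35.2% of the windows at canonical starts, and 3.59% held the palindrome, against 1.52% at canonical starts. The part of base composition in the results was not tested.

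To see how far the SUP-T13 summits recurred elsewhere, summits of each other list within 500 bp were counted, beside those 5 to 5.5 kb away in windows of the same total width. A summit of at least 1 other line lay within 500 bp of 381 SUP-T13 summits (8.74%, 7.92% to 9.62%), against 251 (5.76%, 5.09% to 6.49%) at the larger distance. For DND-41 the shares were 3.40% (2.88% to 3.98%) and 2.20% (1.79% to 2.68%), for HSB-2 1.51% (1.17% to 1.92%) and 0.803% (0.560% to 1.12%), and for LOUCY 2.52% (2.08% to 3.03%) and 1.17% (0.873% to 1.54%), with no overlap of the intervals. For JURKAT (2.32% and 1.74%) and KOPT-K1 (0.229% and 0.0688%) the intervals overlapped. KOPT-K1 had 877 of its 2405 peaks on chromosomes 1 and 2, which limits its share. The share near the summit was thus above that farther away for 2 lines labelled high and for 1 labelled low.

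**Figure D2:**
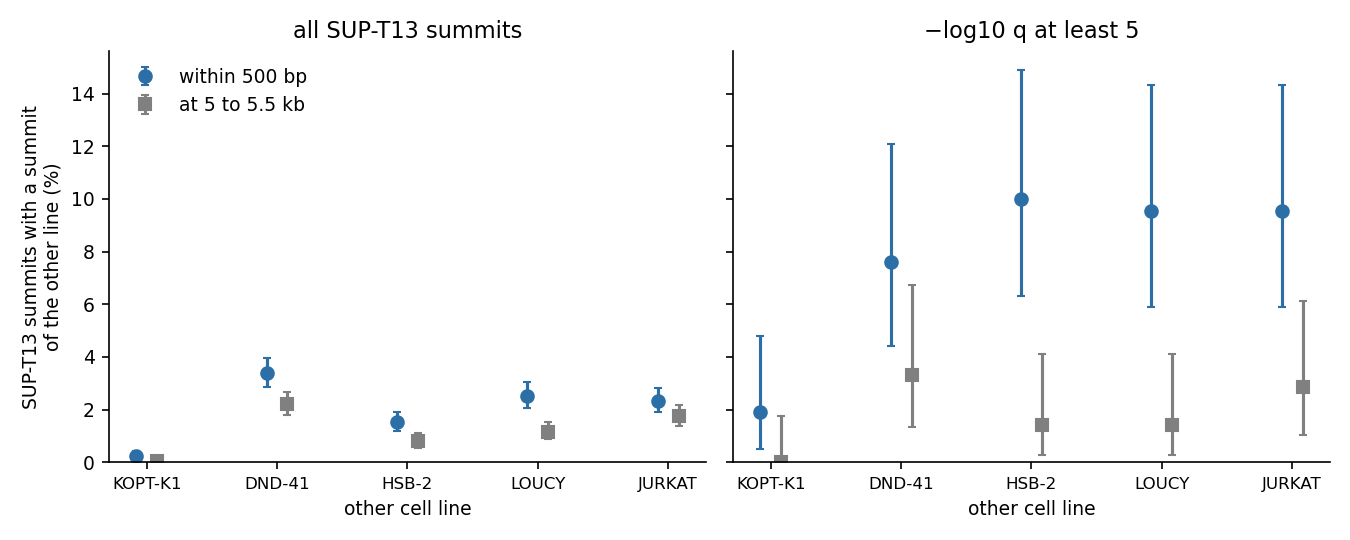
Share (%) of SUP-T13 summits (y axis) with a summit of each other cell line (x axis) within 500 bp or at 5 to 5.5 kb, for all 4358 summits (left) and for the 210 with a −log10 q of at least 5 (right); error bars are 95% exact binomial intervals. In the right plot the shares within 500 bp are 10.0% for HSB-2, 9.52% for LOUCY and for JURKAT, and 1.90% for KOPT-K1.

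Better-ranked summits were shared more often. Among the 210 summits of highest rank, 7.62% had a DND-41 summit within 500 bp, 10.0% (6.30% to 14.9%) an HSB-2 summit, 9.52% (5.91% to 14.3%) a LOUCY summit, 9.52% a JURKAT summit, and 1.90% a KOPT-K1 summit. At 5 to 5.5 kb these shares were 3.33%, 1.43%, 1.43%, 2.86%, and 0%. Between the near and far distances, the intervals did not overlap for HSB-2 and LOUCY but overlapped for DND-41, JURKAT, and KOPT-K1. No SUP-T13 summit had a summit of more than 3 other lists within 500 bp, and 8 had one in 3 lists. The 3 promoter summits among these 8 were at *NOTCH2NLC*, *MAIP1*, and *INO80D*, and others were nearest to *FAM72C*, *S100A6*, *IGFBP5*, and *IKZF2*, which encodes a zinc finger factor of the Ikaros family. That at *NOTCH2NLC* is among the summits called uncertain above. Of the others called so, those at *NBPF26* and *NOTCH2NLA* and nearest to *SHCBP1* were shared with 2 lists and *NBPF11* with 1. Those nearest to *ZNF33B* and *AQP7B* were shared with 0. The shares were not recounted without such summits. Of the 30 summits with the palindrome among these 210, 7 had a summit of another line within 500 bp, against 61 (29.0%) of all 210. The 7 were those at *CAMKMT*, *PTPN4*, *SCN9A*, *HNRNPA3*, *KCNA2*, *ACKR1*, and *FTCDNL1*. Those of these genes not named by rule were picked after their values were seen.

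The description is limited to 1 STAT5B library, so the spread between cultures is unknown. Intervals of many megabases and a near confinement to chromosomes 1 and 2 are unusual for peaks of a transcription factor. Whether the list represents the whole genome was not checked, since signal tracks were not used here. However, the study describes STAT5B peaks in SUP-T13 at several established targets, *RUNX3* among them. In this list *RUNX3* had no summit at its promoter or in its body. The list therefore need not hold every peak that the study describes for this line. The absence of a summit at a gene on another chromosome, beyond the listed stretches, or inside a long interval says nothing of STAT5B there. The fold enrichment and −log10 q depend on the depth and background of both libraries, neither of which is stated. The nearest gene of a distal summit need not be its target. Gene expression was not analysed here, and the reference sequence may differ from that of SUP-T13 at any site shown.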

How the data were processed

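According to the submitters' processing notes and the study's methods, the authors aligned reads to GRCh38 with BWA 0.7.15-r1140, used SAMtools 1.4, and ran MACS2 with the matching input as control; its options are not given in the sources used here. The deposited lists hold a fold enrichment (a linear ratio) and −log10 p and −log10 q per peak, taken as the authors gave them. Signal tracks were not used here.

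The 10 SUP-T13 peaks outside the autosomes were left out. Summits were assigned to protein-coding genes of GENCODE version 44, with exons and introns numbered in the canonical transcript. Motif windows reached 50 bp from the summit, with flanks at 1000 bp; flanking and tiled windows with unsequenced bases were left out, and 1 summit window had such a base. Shares have exact Clopper-Pearson 95% intervals, and within the SUP-T13 list 1 share was called above another where these did not overlap. No test was run, since there were no replicates.

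Genes were named by rule: at the 10 promoter summits with the highest −log10 q and the 10 with the palindrome, nearest to the 5 best intron and 5 best distal summits, the 5 with the most summits in the body, and those with a promoter summit (all, or the 5 best) in 16 lists: T cell receptor and coreceptor, JAK-STAT and cytokine receptor, T-ALL transcription factor, apoptosis, cell cycle, B cell, myeloid and erythroid, histone, ribosomal protein, mitochondrial ribosomal protein, proteasome, splicing factor, zinc finger, olfactory receptor, epidermal differentiation, and HOXD genes. Members and lists were chosen with earlier results of these data known. The division by rank and width, the peaks without near-identical copies, positions at 20 kb, genes outside long intervals or within the listed stretches, and motifs of other factors (from a longer set looked at first) were chosen after seeing the data, as were a few further genes named as such in the text. Some genes that the rule selects are not reported here. Python 3.11.15, NumPy 2.4.6, SciPy 1.17.1, pysam 0.24.0, and matplotlib 3.10.9 were used, and the functions were tested on simulated data.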

Additional observations from a re-analysis of the deposited data

Results flagged for a closer look

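Outside the autosomes, which the comparisons above did not use, the SUP-T13 list held 10 peaks called against input. Their fold enrichment ranged from 1.94 to 6.39 with a median of 2.63, and their median width was 2767 bp. They were not analysed further here.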

How the results depend on the processing

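The counts and shares were recomputed under alternatives, each changing 1 choice. At a −log10 q of at least 5, 210 peaks and 52 promoter genes were left, promoters held 21.0% of summits, the palindrome was at 14.3%, and 29.0% had a summit of another line within 500 bp. At a fold enrichment of at least 3, these were 35 peaks, 11 genes, 22.9%, 25.7%, and 51.4%. Intervals no longer than 5 kb left 2717 peaks and 313 genes and 7.21% near another line, with the promoter and palindrome shares within counting error. Chromosomes 1 and 2 alone changed none of the 5 values beyond it. The promoter share was 9.66% with a 1 kb window, 23.0% with 5 kb, 7.09% with canonical starts alone, and 27.0% when any base of the interval counted, which also gave 1980 genes; the other windows kept the number of genes within 1.5 times. The palindrome share was 2.09% within 25 bp, 7.41% within 100 bp, 17.0% within 250 bp, and 1.93% for the narrower form, as follows from the window and motif. Flanks at 500 or 5000 bp stayed within counting error of those used. The share near another line was 4.54% at 200 bp, 23.6% at 2000 bp, and 66.3% for summits inside an interval of another list. Among summits with a −log10 q of at least 5, in alternatives chosen after seeing the data, the palindrome share was 25.7% at a fold enrichment of at least 3, 32.3% for intervals up to 5 kb, 9.05% within 25 bp, 24.8% within 100 bp, and 31.4% within 250 bp, and it stayed within counting error on chromosomes 1 and 2 alone and for the narrower form. It also did so without peaks near NBPF or NOTCH2 copies, as did the promoter share. In further alternatives chosen after seeing the data, the median width was 123134 bp at a −log10 q of 5 or more, 888472 bp at a fold enrichment of 3 or more, and 2220 bp for intervals up to 5 kb, and the median fold enrichment was 3.40 at a fold enrichment of 3 or more; the other subsets kept both medians within 1.5 times. Beyond window size, the cause was not tested. No paired analysis was possible because each line has 1 STAT5B library. The lists state no depth, which limits all comparisons of values between lines.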
